A study of Homo sapiens with 9 samples.

Results

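Galectins and galectin-3 binding protein were followed in SKOV3, a long-established human cell line from an ovarian tumour. The genes looked for were 8: LGALS1, LGALS2, LGALS3, LGALS3BP, LGALS4, LGALS8, LGALS9 and LGALS12. A gene was read from a probe set annotated to exactly 1 gene, and 6 of the 8 had such a probe set, 1 each, among 14215 genes measured in this way. LGALS8 was present only on 2 probe sets that also carry HEATR1 or LGALS8-AS1, so no value is given for it, and LGALS9 was on no probe set of the annotation used here. In RefSeq, LGALS1 and LGALS2 lie on chromosome 22 with 3 protein-coding genes between them, LGALS3 on chromosome 14, LGALS3BP on chromosome 17, LGALS4 on chromosome 19 and LGALS12 on chromosome 11.

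Cells received 50 µM of a peracetylated 4-deoxy analog of N-acetylglucosamine (Ac-4-deoxy-GlcNAc), 50 µM of peracetylated N-acetylglucosamine (Ac-GlcNAc), or neither compound (untreated). Acetyl groups let such sugars cross the cell membrane. Each group had 3 arrays from 3 culture flasks grown for 3 days in medium with serum, and the untreated label names no vehicle. All cells were of the same line, so the values describe that line only. The deposited values are log2 expression values, 1 per probe set and array. In RNA from whole cultures, fewer cells with a transcript and less of it per cell cannot be told apart.

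Galectins are small lectins that bind β-galactosides, in particular N-acetyllactosamine, in which galactose is joined to GlcNAc at the hydroxyl of carbon 4. The 4-deoxy analog has no hydroxyl at that carbon. Galectins leave cells without a signal peptide and cross-link glycoproteins at the cell surface and in the extracellular matrix, where they act in adhesion, receptor retention and immune control, and inside cells some of them mark damaged vesicles. The comparisons ask whether transcripts of these sugar-binding proteins differed in cells given either compound.

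Array medians lay between 6.58 and 6.65. Untreated replicate 2 stood apart, with an SD over its probe sets of 1.92 against 2.07 to 2.18 on the others and a mean correlation of 0.987 with them. All 7 epithelial and SKOV3 markers were measured, with means over the arrays from 8.08 for EPCAM to 12.24 for ERBB2. Of the measured markers of other cells, 3 of 4 for leukocytes, 3 of 4 for fibroblasts, and all 3 each for endothelium, adipocytes and intestinal epithelium had means below the median probe set. The exceptions were CD68, at 9.24, and LUM, at 6.94. In Ac-4-deoxy-GlcNAc cells, KRT7 and KRT19 fell by 0.46 and 0.49 on the log2 scale relative to untreated cells, with adjusted p of 0.0287 and 0.0122 in limma. CD24 rose in the same comparison by a log2 difference of 0.43 (adjusted p = 0.0354 in limma), and with Ac-GlcNAc by 0.62 (adjusted p = 0.0468). Of the other markers, CD68 and LUM fell by 0.37 and 0.46 and PECAM1 rose by 0.41 with Ac-4-deoxy-GlcNAc (adjusted p = 0.0455, 0.0474 and 0.0178 in limma). The part of these markers in the results that follow was not tested.

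None of the 6 measured genes passed the test in any comparison. With Ac-4-deoxy-GlcNAc against untreated, limma called 0 of 6 at an adjusted p under 0.05, while 11% of all 17859 probe sets were called. In the same comparison 2 of 6 had an unadjusted p under 0.05, against 31.2% of all probe sets. With Ac-GlcNAc against untreated the calls were 0 of 6, against 0.442% of all probe sets, and 1 of 6 had an unadjusted p under 0.05, against 26.4%. With Ac-4-deoxy-GlcNAc against Ac-GlcNAc they were 0 of 6, against 2.38%, and 1 of 6 had an unadjusted p under 0.05, against 13.6%. Limma's F test over the 3 groups called 0 of 6 members, against 8.36% of all probe sets, with adjusted p from 0.10 to 0.872, and 2 had an unadjusted p under 0.05, against 31.1% of all probe sets. The comparisons with untreated cells share the 3 untreated arrays, and each compound's arrays also enter the comparison between the compounds.

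**Figure D1:**
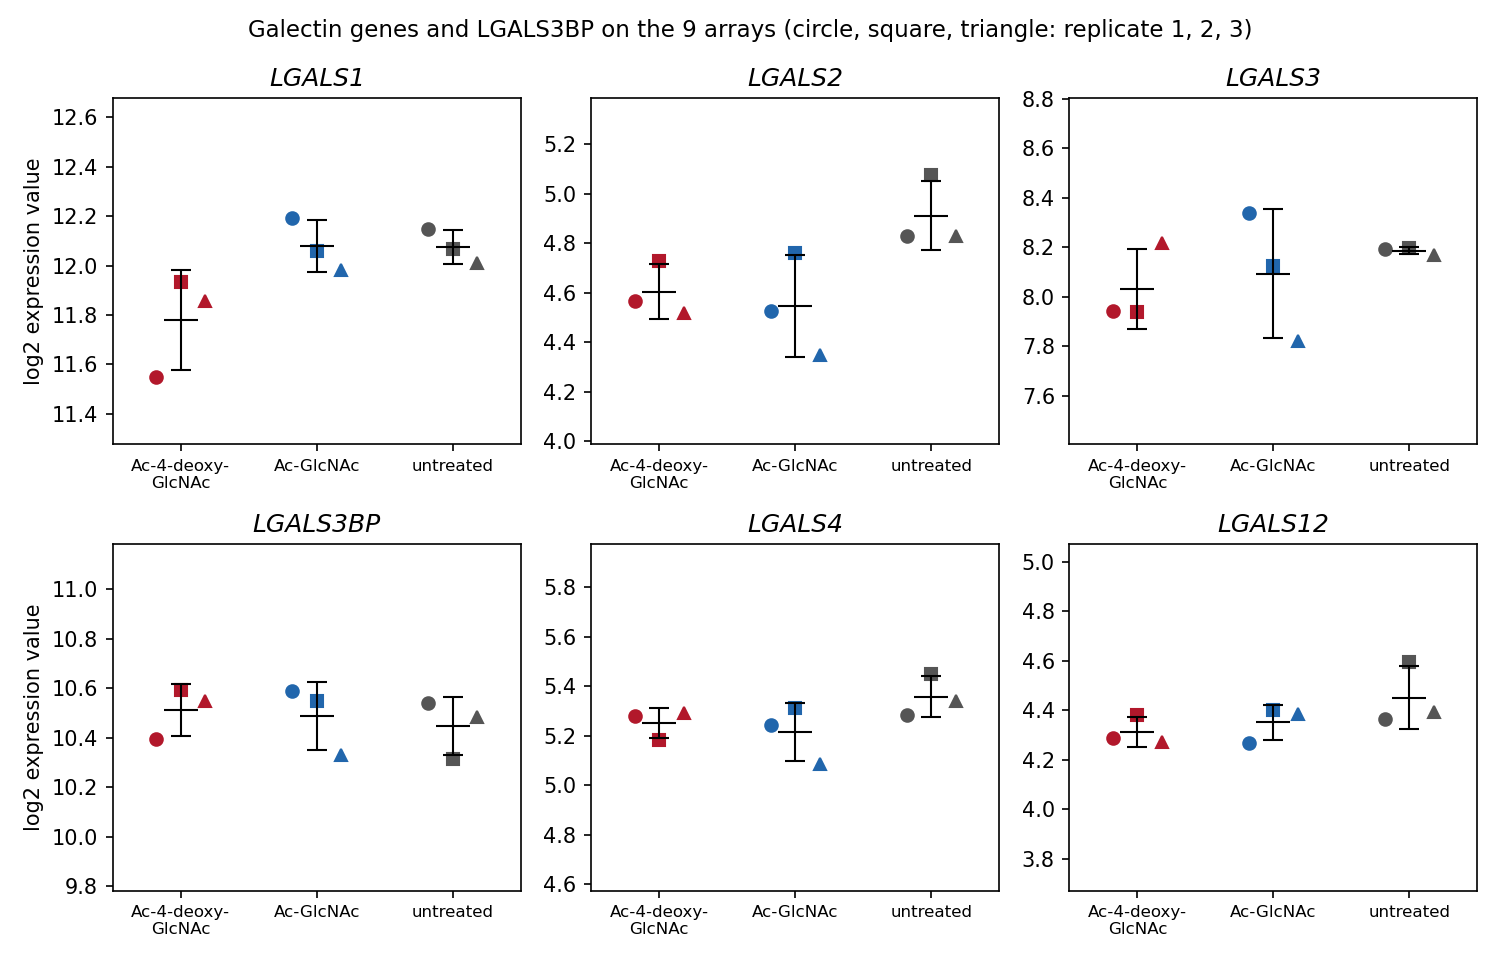
Log2 expression values (vertical axis) of LGALS1, LGALS2, LGALS3, LGALS3BP, LGALS4 and LGALS12 on the 9 arrays, in Ac-4-deoxy-GlcNAc, Ac-GlcNAc and untreated cells from left to right. Each symbol is 1 array, long bars are group means and whiskers are 1 SD (n = 3); LGALS1 is lowest on the 3 Ac-4-deoxy-GlcNAc arrays and LGALS2 highest on the 3 untreated arrays.

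LGALS1 encodes galectin-1, a small galectin with a single sugar-binding domain that pairs with itself. Its log2 values were 11.55, 11.93 and 11.86 in Ac-4-deoxy-GlcNAc cells, 12.19, 12.06 and 11.98 in Ac-GlcNAc cells, and 12.15, 12.07 and 12.01 in untreated cells. All 3 Ac-4-deoxy-GlcNAc arrays were below all 6 others, and the Ac-GlcNAc and untreated arrays overlapped. The means were 11.78 ± 0.20, 12.08 ± 0.11 and 12.08 ± 0.069 in that order of groups (SD, n = 3 each).

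The log2 difference of LGALS1 between Ac-4-deoxy-GlcNAc and untreated cells was -0.30 (SE 0.11, 95% interval -0.54 to -0.055), or 1.23-fold lower, with an unadjusted p of 0.0197 and an adjusted p of 0.0971 in limma. Against Ac-GlcNAc it was also -0.30 (SE 0.11, 95% interval -0.54 to -0.058), with an unadjusted p of 0.0188 and an adjusted p of 0.219. Neither adjusted p was under 0.05. For Ac-GlcNAc against untreated the difference was 0.0028 (95% interval -0.24 to 0.24, adjusted p = 0.990 in limma). Ac-4-deoxy-GlcNAc replicate 1 was the lowest of the 9 arrays, and without it the differences were -0.18 against untreated (adjusted p = 0.284 in limma) and -0.18 against Ac-GlcNAc (adjusted p = 0.759). Over 20 other settings the difference from untreated ran from -0.37 to -0.18 and the adjusted p from 0.0443 to 0.351. LGALS1 fell under 2 of these settings, by 0.35 after cyclic loess (adjusted p = 0.0443 in limma) and by 0.30 with limma's trend and robust options (adjusted p = 0.045). LGALS1 and LGALS3BP were among the 4465 probe sets with the highest mean levels. The median log2 difference of those probe sets from untreated was 0.064 with Ac-4-deoxy-GlcNAc and 0.11 with Ac-GlcNAc. Its part in the values of LGALS1 and LGALS3BP was not tested.

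LGALS2 encodes galectin-2, a close relative of galectin-1 known mainly from the gastrointestinal tract. Its log2 values were 4.57, 4.73 and 4.52 in Ac-4-deoxy-GlcNAc cells, 4.52, 4.76 and 4.35 in Ac-GlcNAc cells, and 4.83, 5.07 and 4.83 in untreated cells. All 3 untreated arrays were above the 6 arrays of treated cells, and the arrays of the compounds overlapped. The means were 4.60 ± 0.11 in Ac-4-deoxy-GlcNAc, 4.55 ± 0.21 in Ac-GlcNAc and 4.91 ± 0.14 in untreated cells (SD, n = 3 each).

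The log2 difference of LGALS2 between Ac-4-deoxy-GlcNAc and untreated cells was -0.31 (SE 0.12, 95% interval -0.56 to -0.050), with an unadjusted p of 0.0227 and an adjusted p of 0.104 in limma. For Ac-GlcNAc against untreated it was -0.37 (SE 0.12, 95% interval -0.62 to -0.11), or 1.29-fold lower, with an unadjusted p of 0.00868 and an adjusted p of 0.105. The compounds differed by 0.059 (95% interval -0.20 to 0.32, adjusted p = 0.938 in limma).

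The LGALS2 values are set here beside the spread of the arrays. LGALS2 and LGALS12 were among the 4465 probe sets with the lowest mean levels, and the median of that set was 4.32, 4.29 and 4.18 in Ac-4-deoxy-GlcNAc cells, 4.23, 4.23 and 4.16 in Ac-GlcNAc cells, and 4.36, 4.65 and 4.35 in untreated cells. Untreated replicate 2, the array with the smallest SD, had the highest value of LGALS2 and of that median. The set's median log2 difference was -0.18 for Ac-4-deoxy-GlcNAc and -0.23 for Ac-GlcNAc, each against untreated. Without untreated replicate 2, the LGALS2 differences were -0.23 with Ac-4-deoxy-GlcNAc (adjusted p = 0.293 in limma) and -0.28 with Ac-GlcNAc (adjusted p = 0.345). With the SD of each array in the fit, they were -0.15 and -0.15, with adjusted p of 0.563 and 1.0. After cyclic loess the LGALS2 differences from untreated were -0.15 with Ac-4-deoxy-GlcNAc and -0.18 with Ac-GlcNAc (adjusted p = 0.305 and 0.356 in limma). After quantile normalization they were -0.15 and -0.15 (adjusted p = 0.306 and 0.411 in limma). The part of the array spread in the LGALS2 values was not tested.

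**Figure D2:**
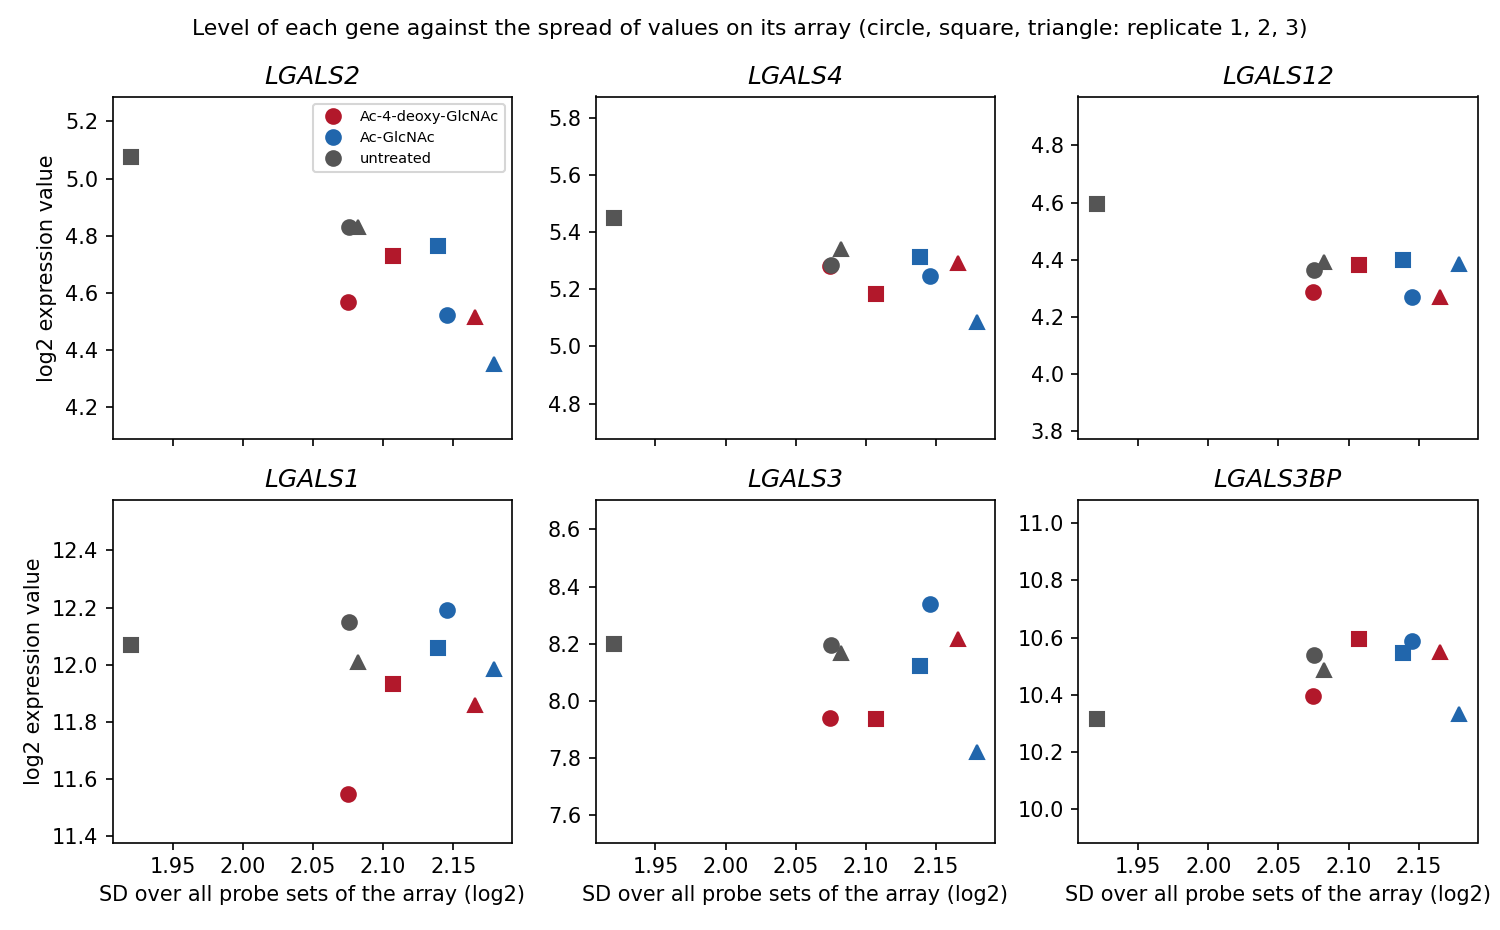
Log2 expression value of each gene (vertical axes) against the SD of log2 values over all probe sets of the same array (horizontal axis), 1 symbol per array in Ac-4-deoxy-GlcNAc, Ac-GlcNAc and untreated cells. Untreated replicate 2, at an SD of 1.92, lies apart on the left and has the highest LGALS2, LGALS4 and LGALS12 values, while the low LGALS1 value of Ac-4-deoxy-GlcNAc replicate 1, 11.55, lies at an SD of 2.07.

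The genes with the pattern most like LGALS2, which had the smallest F test p among the members, were CCDC172 (Pearson r = 0.981), TAS2R7 (r = 0.967) and GIPR (r = 0.967). Likeness was taken over the 9 arrays among 14209 genes, as a description. TAS2R7 encodes a bitter taste receptor and GIPR the receptor of an incretin hormone. All of these points share the same arrays and their spread: CCDC172 was at 4.94, 5.17 and 4.94 in Ac-4-deoxy-GlcNAc cells, 5.02, 5.19 and 4.66 in Ac-GlcNAc cells, and 5.32, 5.53 and 5.25 in untreated cells. As with LGALS2, untreated replicate 2 was highest and Ac-GlcNAc replicate 3 lowest.

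LGALS3 encodes galectin-3, whose single sugar-binding domain carries a long tail through which the protein forms larger assemblies. Its log2 values were 7.94, 7.94 and 8.22 in Ac-4-deoxy-GlcNAc cells, 8.34, 8.12 and 7.82 in Ac-GlcNAc cells, and 8.19, 8.20 and 8.17 in untreated cells. The untreated arrays were close together, and both compounds' arrays reached to either side of them. The difference from untreated was -0.16 with Ac-4-deoxy-GlcNAc (95% interval -0.43 to 0.12, adjusted p = 0.412 in limma) and -0.093 with Ac-GlcNAc (95% interval -0.37 to 0.18, adjusted p = 0.652). Ac-4-deoxy-GlcNAc against Ac-GlcNAc gave -0.062 (95% interval -0.34 to 0.21, adjusted p = 0.939).

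LGALS4 encodes galectin-4, which joins 2 sugar-binding domains in 1 chain and is typical of intestinal epithelium. Its values were 5.28, 5.18 and 5.29 in Ac-4-deoxy-GlcNAc cells, 5.24, 5.31 and 5.09 in Ac-GlcNAc cells, and 5.29, 5.45 and 5.34 in untreated cells. The groups overlapped in all 3 comparisons. The log2 difference from untreated was -0.11 with Ac-4-deoxy-GlcNAc (95% interval -0.31 to 0.0996, adjusted p = 0.457 in limma) and -0.14 with Ac-GlcNAc (95% interval -0.35 to 0.063, adjusted p = 0.342). Without untreated replicate 2 these were -0.062 and -0.098. CDX2, CDH17 and VIL1, markers of intestinal epithelium, had means from 3.92 to 5.78 over the arrays, all below the median probe set.

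LGALS12 encodes galectin-12, known from fat cells, where it sits on lipid droplets. Its values were 4.29, 4.38 and 4.27 in Ac-4-deoxy-GlcNAc cells, 4.27, 4.40 and 4.38 in Ac-GlcNAc cells, and 4.36, 4.60 and 4.39 in untreated cells. These groups overlapped as well, with untreated replicate 2 again highest. The log2 difference from untreated was -0.14 with Ac-4-deoxy-GlcNAc (95% interval -0.35 to 0.070, adjusted p = 0.338 in limma) and -0.099 with Ac-GlcNAc (95% interval -0.31 to 0.11, adjusted p = 0.517), and without untreated replicate 2 they were -0.064 and -0.026. The adipocyte markers ADIPOQ, PLIN1 and FABP4 had means from 3.63 to 5.71, all below the median probe set.

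LGALS3BP encodes galectin-3 binding protein, a secreted and heavily glycosylated member of the scavenger receptor cysteine-rich family that binds galectins and matrix proteins and is induced by interferons. Its log2 values were 10.39, 10.59 and 10.55 in Ac-4-deoxy-GlcNAc cells, 10.59, 10.55 and 10.33 in Ac-GlcNAc cells, and 10.54, 10.32 and 10.48 in untreated cells. The 3 groups covered nearly the same range, and the means were 10.51 ± 0.11, 10.49 ± 0.14 and 10.45 ± 0.12 in that order (SD, n = 3 each). The difference from untreated was 0.066 with Ac-4-deoxy-GlcNAc (95% interval -0.16 to 0.29, adjusted p = 0.692 in limma) and 0.042 with Ac-GlcNAc (95% interval -0.19 to 0.27, adjusted p = 0.816). The widest of these bounds is 1.23-fold.

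Between the compounds, at the same dose and time, the named change in structure is the missing hydroxyl at carbon 4. This was 1 pair of compounds, and the adjusted p-values above are over all 17859 probe sets. LGALS1 had the only log2 interval of the 6 genes that left out 0, and its adjusted p was 0.219 in limma. Of the other 5 genes, LGALS3BP differed by 0.024 (95% interval -0.20 to 0.25), LGALS4 by 0.036 (-0.17 to 0.24) and LGALS12 by -0.038 (-0.25 to 0.17). For all 6 genes the interval of the difference between the compounds lay within 1.5-fold, and its widest bound was 1.45-fold, that of LGALS1. The same held for 6 of 6 genes between Ac-4-deoxy-GlcNAc and untreated cells, and for 5 of 6 with Ac-GlcNAc against untreated, where the interval of LGALS2 reached 1.54-fold. These bounds limit the size of the differences and do not show that the groups were alike.

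**Figure D3:**
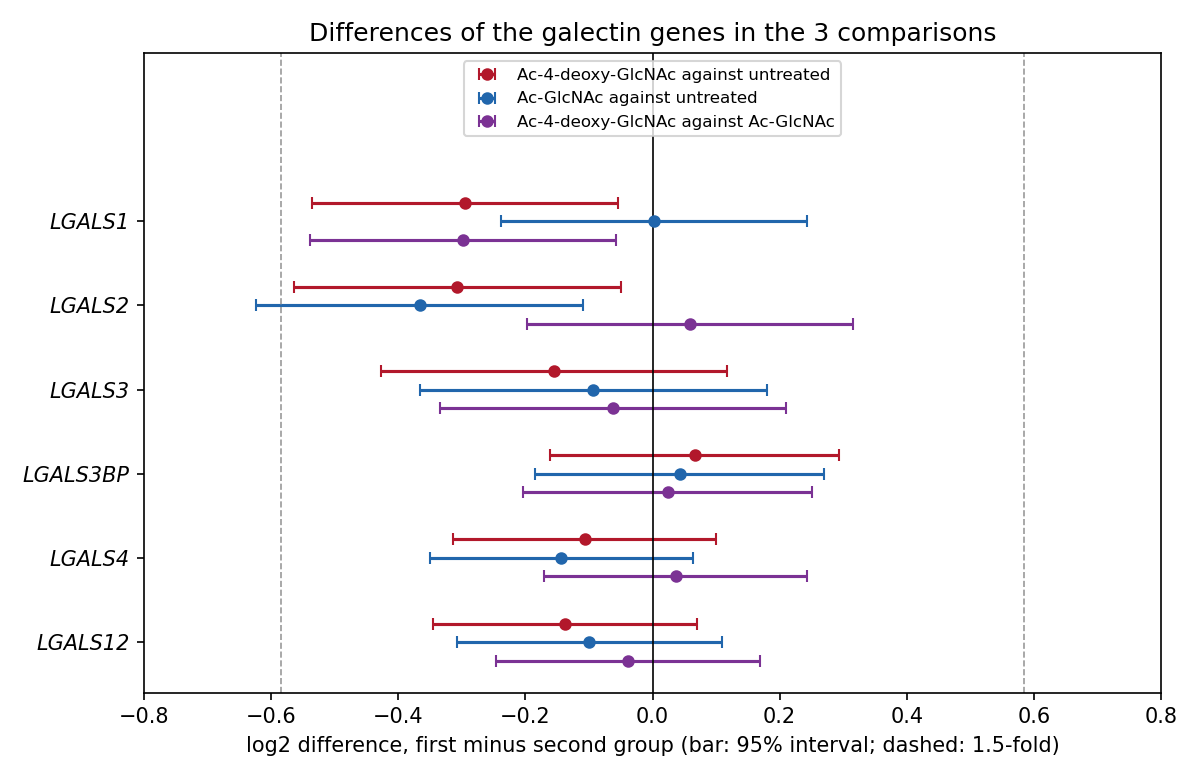
Log2 differences of the 6 measured genes with 95% intervals from limma (horizontal axis), for Ac-4-deoxy-GlcNAc against untreated, Ac-GlcNAc against untreated and Ac-4-deoxy-GlcNAc against Ac-GlcNAc; dashed lines mark 1.5-fold. The LGALS1 intervals lie below 0 in both comparisons of Ac-4-deoxy-GlcNAc, those of LGALS2 in both comparisons with untreated cells, where the Ac-GlcNAc interval passes 1.5-fold, and the other intervals cross 0.

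Taken by count, 5 of 6 genes were below 0 with Ac-4-deoxy-GlcNAc against untreated, 4 of 6 with Ac-GlcNAc against untreated and 3 of 6 between the compounds, and none of these 18 differences passed the test. The median difference of the 6 was -0.15, -0.096 and -0.0072, against -0.051, -0.017 and 0.0031 for all probe sets. After cyclic loess the counts below 0 were 3, 5 and 3, after quantile normalization 5, 4 and 4, and after median centring 5, 5 and 3. Arrays of the compared groups did not overlap for 2 genes in the comparison of Ac-4-deoxy-GlcNAc with untreated cells, both lower, while 32.1% of all probe sets did not overlap there and 19.1% were lower without overlap. For Ac-GlcNAc against untreated this was 1 gene, lower, against 32.3% and 19.3% of all probe sets. Between the compounds it was 1 gene, lower in Ac-4-deoxy-GlcNAc, against 21.2% and 11.6%.

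Other genes around the galectins were read from lists by role. Of 10 further galectin genes 3 were measured, CLC, LGALS14 and LGALSL. Limma called 0 of these in any comparison, with 0 at an unadjusted p under 0.05. For Ac-4-deoxy-GlcNAc and for Ac-GlcNAc, each against untreated, and between the compounds, 11%, 0.442% and 2.38% of all probe sets were called. In that order 31.2%, 26.4% and 13.6% of all probe sets had an unadjusted p under 0.05. CLC, the Charcot-Leyden crystal galectin of eosinophils, differed from untreated by -0.11 with Ac-4-deoxy-GlcNAc (adjusted p = 0.513 in limma) and -0.23 with Ac-GlcNAc (adjusted p = 0.221). LGALS14, a placental galectin gene, differed by -0.089 and -0.12 (adjusted p = 0.579 and 0.450). Means over the arrays were 4.13 for CLC and 4.47 for LGALS14, both below the 25th percentile of mean levels, 4.89. At those lowest levels the median difference of probe sets from untreated was -0.18 with Ac-4-deoxy-GlcNAc and -0.23 with Ac-GlcNAc. Its part in the values of CLC and LGALS14 was not tested.

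The enzymes that build and cap N-acetyllactosamine, the sugar that galectins read, were measured for 17 of 18 genes. Among them, B4GALT1, a galactosyltransferase gene, was below the 25th percentile of mean levels, 4.89, on every array. Whether a change in B4GALT1 could be seen at that level was not tested. Limma called 0 of 17 in each comparison. For Ac-4-deoxy-GlcNAc and for Ac-GlcNAc, each against untreated, and between the compounds, 11%, 0.442% and 2.38% of all probe sets were called. In that order 1, 2 and 1 of the 17 had an unadjusted p under 0.05, against 31.2%, 26.4% and 13.6% of all probe sets. The median difference of the list was 0.0063, 0.024 and -0.0083 in that order, against -0.051, -0.017 and 0.0031 for all probe sets. B3GNT3, which adds GlcNAc to galactose in chain extension, averaged 5.88 ± 0.074 in Ac-4-deoxy-GlcNAc, 5.83 ± 0.10 in Ac-GlcNAc and 6.12 ± 0.057 in untreated cells (SD, n = 3 each). Its differences from untreated were -0.23 and -0.29, with adjusted p of 0.113 and 0.105 in limma. ST3GAL3, a sialyltransferase that caps galactose, differed by 0.25 between the compounds (adjusted p = 0.240 in limma, and 0.0477 with array weights), at 7.39 ± 0.13 in Ac-4-deoxy-GlcNAc and 7.14 ± 0.022 in Ac-GlcNAc cells (SD, n = 3 each).

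Of 27 glycoproteins listed as partners of galectins or LGALS3BP 25 were measured. Relative to untreated, 2 rose and 2 fell with Ac-4-deoxy-GlcNAc, where 5.38% of all probe sets rose and 5.64% fell, and 0 rose and 1 fell with Ac-GlcNAc, where 0.207% rose and 0.235% fell. Between the compounds limma called 0 of 25, against 2.38% of all probe sets, and 5 had an unadjusted p under 0.05, against 13.6%. Over the 20 other settings from 0 to 3 of the list rose and from 1 to 3 fell with Ac-4-deoxy-GlcNAc. With Ac-GlcNAc from 0 to 1 rose and from 0 to 1 fell, and between the compounds 0 were higher and from 0 to 1 lower. The list's median difference was -0.024, 0.068 and -0.061. MUC1, a cell-surface mucin bound by galectin-3, had values of 7.73, 7.79 and 7.74 in Ac-4-deoxy-GlcNAc cells, 7.92, 7.95 and 7.89 in Ac-GlcNAc cells, and 8.32, 8.56 and 8.53 in untreated cells. The 3 groups were fully apart, with untreated cells highest. MUC1 fell with Ac-4-deoxy-GlcNAc by 0.72 on the log2 scale (SE 0.094, adjusted p = 0.00101 in limma) and with Ac-GlcNAc by 0.55 (SE 0.094, adjusted p = 0.0299). Between the compounds it differed by -0.17 (95% interval -0.37 to 0.037, adjusted p = 0.511). MUC1 was called with Ac-4-deoxy-GlcNAc under all 20 other settings. With Ac-GlcNAc the call was lost without Ac-GlcNAc replicate 1, 2 or 3 (adjusted p = 0.0989, 0.134 and 0.129 in limma) and without untreated replicate 2 (adjusted p = 0.0701), and the adjusted p was 0.915 with the SD of each array in the fit, 0.0553 with only the 6 arrays compared and 0.0506 without the pair Ac-4-deoxy-GlcNAc replicate 1 and untreated replicate 2, so that it was kept in 13 of 20 settings.

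The other calls of the glycoprotein list were smaller and all in Ac-4-deoxy-GlcNAc against untreated. NRP1, a receptor for semaphorins and growth factors that galectin-1 binds, was at 10.37, 10.01 and 10.20 in Ac-4-deoxy-GlcNAc cells and at 9.85, 9.73 and 9.70 in untreated cells, without overlap. It rose by a log2 difference of 0.43 (SE 0.10, adjusted p = 0.0219 in limma), a call lost on leaving out Ac-4-deoxy-GlcNAc replicate 1 or 3 (adjusted p = 0.0768 and 0.0771) or untreated replicate 3 (adjusted p = 0.0578). It was also lost with only the 6 arrays compared, with the SD of each array in the fit and without the pair named for MUC1 (adjusted p = 0.0589, 0.0774 and 0.108 in limma), and kept in 14 of 20 settings. LAMB1, a laminin chain of basement membranes, was at 9.50, 9.49 and 9.49 in Ac-4-deoxy-GlcNAc cells and at 9.79, 9.83 and 9.98 in untreated cells. It fell by 0.37 (SE 0.099, adjusted p = 0.0304 in limma), and the call was lost without any 1 of the Ac-4-deoxy-GlcNAc arrays (adjusted p = 0.0704, 0.0632 and 0.0991) or untreated replicate 3 (adjusted p = 0.0867). Under the same 3 further settings the adjusted p was 0.0610, 0.0621 and 0.0796 in limma, and 13 of 20 kept the call. CD44, a hyaluronan receptor, was at 9.44, 9.27 and 9.55 in Ac-4-deoxy-GlcNAc cells and at 9.24, 8.92 and 9.04 in untreated cells. It rose by 0.36 with an adjusted p of 0.0499 in limma, and was called in only 2 of 9 fits without 1 array. In the other 7 the adjusted p ran from 0.0654 to 0.196, the arrays left out being Ac-4-deoxy-GlcNAc replicates 1 and 3, each Ac-GlcNAc replicate and untreated replicates 2 and 3. The adjusted p was 0.107, 0.286 and 0.205 in limma under the 3 further settings, 0.0545 after cyclic loess, 0.0536 after quantile normalization and 0.0700 with array weights, so that 7 of 20 settings kept the call.

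Galectins that mark damaged vesicles work with autophagy receptors. Of 10 genes listed as partners in membrane damage and autophagy, not all of them receptors, 7 were measured. TFEB, a transcription factor of lysosomal genes, fell with Ac-4-deoxy-GlcNAc against untreated. It was the only gene of that list called, against 5.64% of all probe sets called lower. With Ac-GlcNAc against untreated and between the compounds 0 were called, against 0.442% and 2.38% of all probe sets. There 2 and 1 had an unadjusted p under 0.05 in limma, against 26.4% and 13.6%. The list's median difference was 0.10, 0.16 and -0.17 in the 3 comparisons. With Ac-4-deoxy-GlcNAc against untreated its differences ran from -0.38, that of TFEB, to 0.19. The TFEB values were 6.24, 6.31 and 6.19 in Ac-4-deoxy-GlcNAc cells and 6.55, 6.63 and 6.71 in untreated cells. The groups did not overlap, and the difference was -0.38 (SE 0.090, adjusted p = 0.0211 in limma). Without Ac-4-deoxy-GlcNAc replicate 1 or 3, or untreated replicate 3, the adjusted p was 0.0589, 0.0880 and 0.0611. It was 0.0592 with only the 6 arrays compared, 0.0708 with the SD of each array in the fit and 0.0706 when the pair of arrays named for MUC1 was left out, and 13 of 19 settings kept the call in limma.

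Because LGALS3BP is known to be induced by interferons, 20 interferon-stimulated genes were set beside it, of which 18 were measured. With Ac-4-deoxy-GlcNAc against untreated 6 of 18 fell and 0 rose, against 5.64% of all probe sets called lower and 5.38% called higher. The 6 became 2 when Ac-4-deoxy-GlcNAc replicate 1 was left out, 3 when untreated replicate 2 was, and 3 with the SD of each array in the fit, and ran from 2 to 6 over the 20 other settings. With Ac-GlcNAc against untreated limma called 0 of 18, against 0.442% of all probe sets, and 4 had an unadjusted p under 0.05, against 26.4%. Between the compounds 1 of 18 was lower and 0 higher, against 1.48% and 0.896% of all probe sets. The list's median difference was -0.13, -0.075 and -0.092 in these comparisons. With Ac-4-deoxy-GlcNAc against untreated its differences ran from -1.03 to 0.36, so the list did not move as 1. Some of its genes, IFIT3 and OAS3 among them, had higher means in Ac-4-deoxy-GlcNAc cells without a call.

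IFITM1, an antiviral membrane protein, was at 6.93, 7.46 and 7.24 in Ac-4-deoxy-GlcNAc cells, 7.91, 7.98 and 7.89 in Ac-GlcNAc cells, and 8.27, 8.36 and 8.08 in untreated cells. The 3 groups did not overlap. IFITM1 fell with Ac-4-deoxy-GlcNAc by 1.03 on the log2 scale against untreated (SE 0.13, adjusted p = 0.000688 in limma), or 2.04-fold, and by 0.72 against Ac-GlcNAc (SE 0.13, adjusted p = 0.0101). The first was called under all 20 other settings, and the second was lost without Ac-GlcNAc replicate 2 (adjusted p = 0.0501 in limma). With Ac-GlcNAc against untreated the difference was -0.31 (95% interval -0.58 to -0.034, adjusted p = 0.152 in limma).

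IFI44L, a gene of the interferon response, was at 4.18, 4.26 and 4.02 in Ac-4-deoxy-GlcNAc cells, 4.21, 4.39 and 4.45 in Ac-GlcNAc cells, and 4.63, 4.96 and 4.76 in untreated cells. It fell with Ac-4-deoxy-GlcNAc by 0.63 (SE 0.11, adjusted p = 0.00510 in limma), a call kept in all 9 fits without 1 array. Its mean over the arrays, 4.43, was below the 25th percentile of mean levels, 4.89. The median difference of the probe sets at those lowest levels was -0.18 in this comparison, and its part in the IFI44L fall was not tested. IFI44L had a value in 18 other settings and was called in all 18, with differences from -0.71 to -0.45. With Ac-GlcNAc it differed by -0.43 (adjusted p = 0.0851 in limma), and it was called there without untreated replicate 1 (adjusted p = 0.0376) and with array weights (adjusted p = 0.0188). IFI44, a related gene, was at 5.06, 5.21 and 4.95 in Ac-4-deoxy-GlcNAc cells and at 5.53, 5.89 and 5.32 in untreated cells. It fell with Ac-4-deoxy-GlcNAc by 0.51 (SE 0.14, adjusted p = 0.0333), a call lost without Ac-4-deoxy-GlcNAc replicate 1 or 3 or untreated replicate 2 (adjusted p = 0.0745, 0.143 and 0.101). The difference was -0.30 with array weights (adjusted p = 0.149 in limma), -0.28 with the SD of each array in the fit (adjusted p = 0.280) and -0.35 with the pair of arrays named for MUC1 left out (adjusted p = 0.149), and the adjusted p was 0.0665 with only the 6 arrays compared, so that 12 of 19 settings kept the call. IFI27 was at 7.01, 7.11 and 7.33 in Ac-4-deoxy-GlcNAc cells and at 7.62, 7.62 and 7.61 in untreated cells. It fell by 0.46 (SE 0.13, adjusted p = 0.0343 in limma), a call lost without Ac-4-deoxy-GlcNAc replicate 1 or 2 or untreated replicate 2 or 3 (adjusted p = 0.0993, 0.0726, 0.0761 and 0.0654). The adjusted p was 0.127 with the SD of each array in the fit and 0.144 without that pair, and 14 of 20 settings kept the call in limma. The remaining called genes of the list, OAS1 and TAP1, fell by 0.38 and 0.44, and were named after their values were seen.

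**Figure D4:**
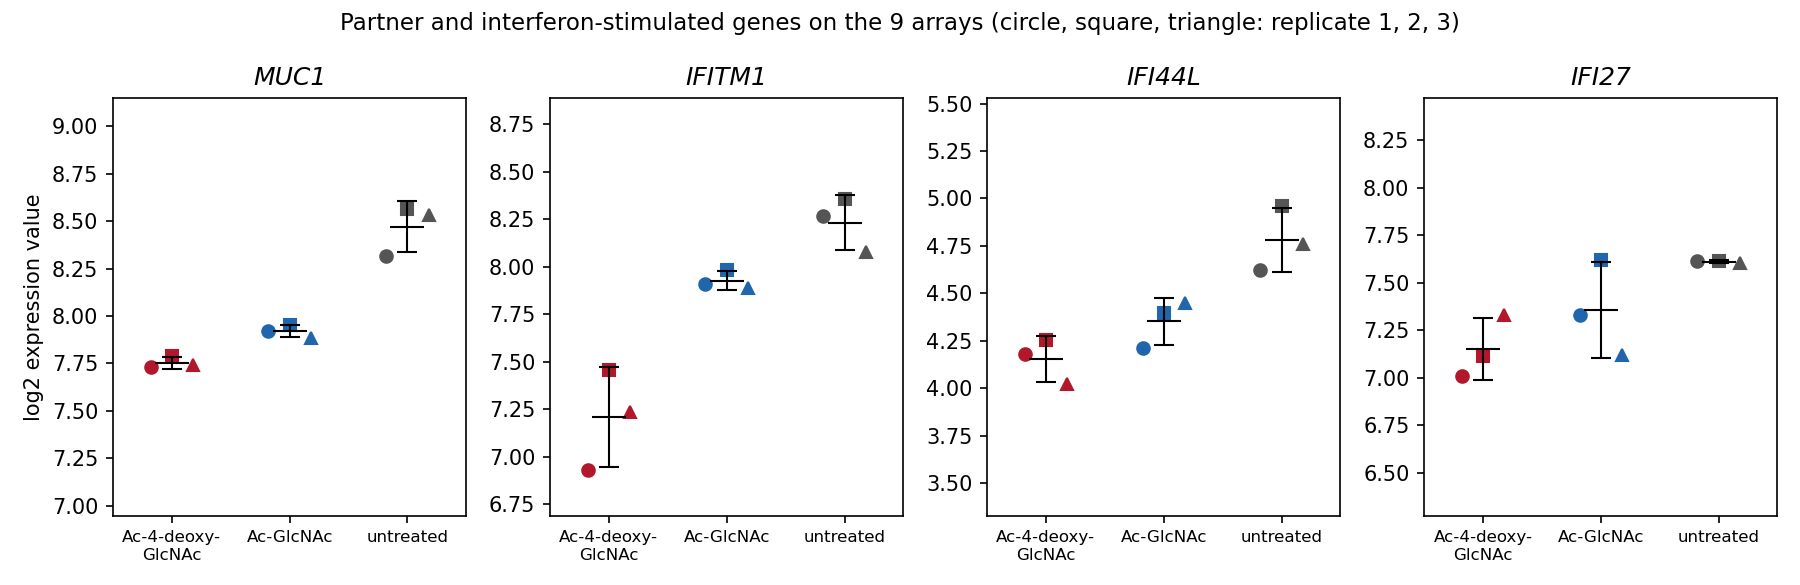
Log2 expression values (vertical axes) of MUC1, IFITM1, IFI44L and IFI27 on the 9 arrays, in Ac-4-deoxy-GlcNAc, Ac-GlcNAc and untreated cells from left to right. Symbols are single arrays, long bars group means and whiskers 1 SD (n = 3); for each of the 4 genes all Ac-4-deoxy-GlcNAc arrays lie below all untreated arrays, and for MUC1 and IFITM1 the Ac-GlcNAc arrays lie between them.

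LGALS3BP itself had a 95% interval of -0.16 to 0.29 with Ac-4-deoxy-GlcNAc against untreated, in the comparison in which these 6 genes fell. The difference between LGALS3BP and these genes was not itself tested. A common sequence of interferon-responsive promoters is the core of the interferon-stimulated response element, here searched on both strands as GAAA, any 2 bases and GAAA again, in the 250 bases before each RefSeq transcript start, a search chosen after the LGALS3BP sequence was seen. The letters were found in 3.02% of 35116 such windows of all genes and in 15 of 23 windows (65.2%) of the interferon-stimulated genes. Among the galectin genes looked for, 6 were listed with 8 windows, namely LGALS2, LGALS3, LGALS3BP, LGALS4, LGALS8 and LGALS9. LGALS1 and LGALS12 had no window and were not searched, and LGALS8 and LGALS9 have no expression value here. Of the 8 windows 1 had a match, that of LGALS3BP, 58 to 49 bases before the start. For each of the 4 interferon-stimulated genes described by array, 1 stretch of at most 50 bases was taken around the first match in 1 window. The windows of IFI44L and IFI27 held 2 matches, and the other match of IFI44L lies outside its stretch. These stretches and the whole LGALS3BP window are shown so that the shared letters can be read. They are in GRCh38.p14, on the transcribed gene's own strand and 5′ to 3′, with matches on either strand in capitals. The LGALS3BP window is chr17:78979924-78980173 on the minus strand. Those of IFITM1 (chr11:313980-314029), IFI44L (chr1:78620264-78620313), IFI44 (chr1:78649751-78649788) and IFI27 (chr14:94110608-94110657) are on the plus strand.
LGALS3BP: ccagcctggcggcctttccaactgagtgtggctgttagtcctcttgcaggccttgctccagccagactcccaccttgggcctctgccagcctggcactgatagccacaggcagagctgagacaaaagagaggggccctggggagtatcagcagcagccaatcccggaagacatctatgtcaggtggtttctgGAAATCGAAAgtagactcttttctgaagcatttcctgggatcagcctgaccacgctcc
IFITM1: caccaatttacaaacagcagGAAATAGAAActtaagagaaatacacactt
IFI44L: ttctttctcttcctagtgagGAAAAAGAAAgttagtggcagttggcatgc
IFI44: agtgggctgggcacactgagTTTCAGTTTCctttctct
IFI27: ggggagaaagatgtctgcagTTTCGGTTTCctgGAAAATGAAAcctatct

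These stretches hold the same letters outside the 2 free bases, as the search requires, and a match describes the sequence and is no measure of factor binding.

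**Figure D5:**
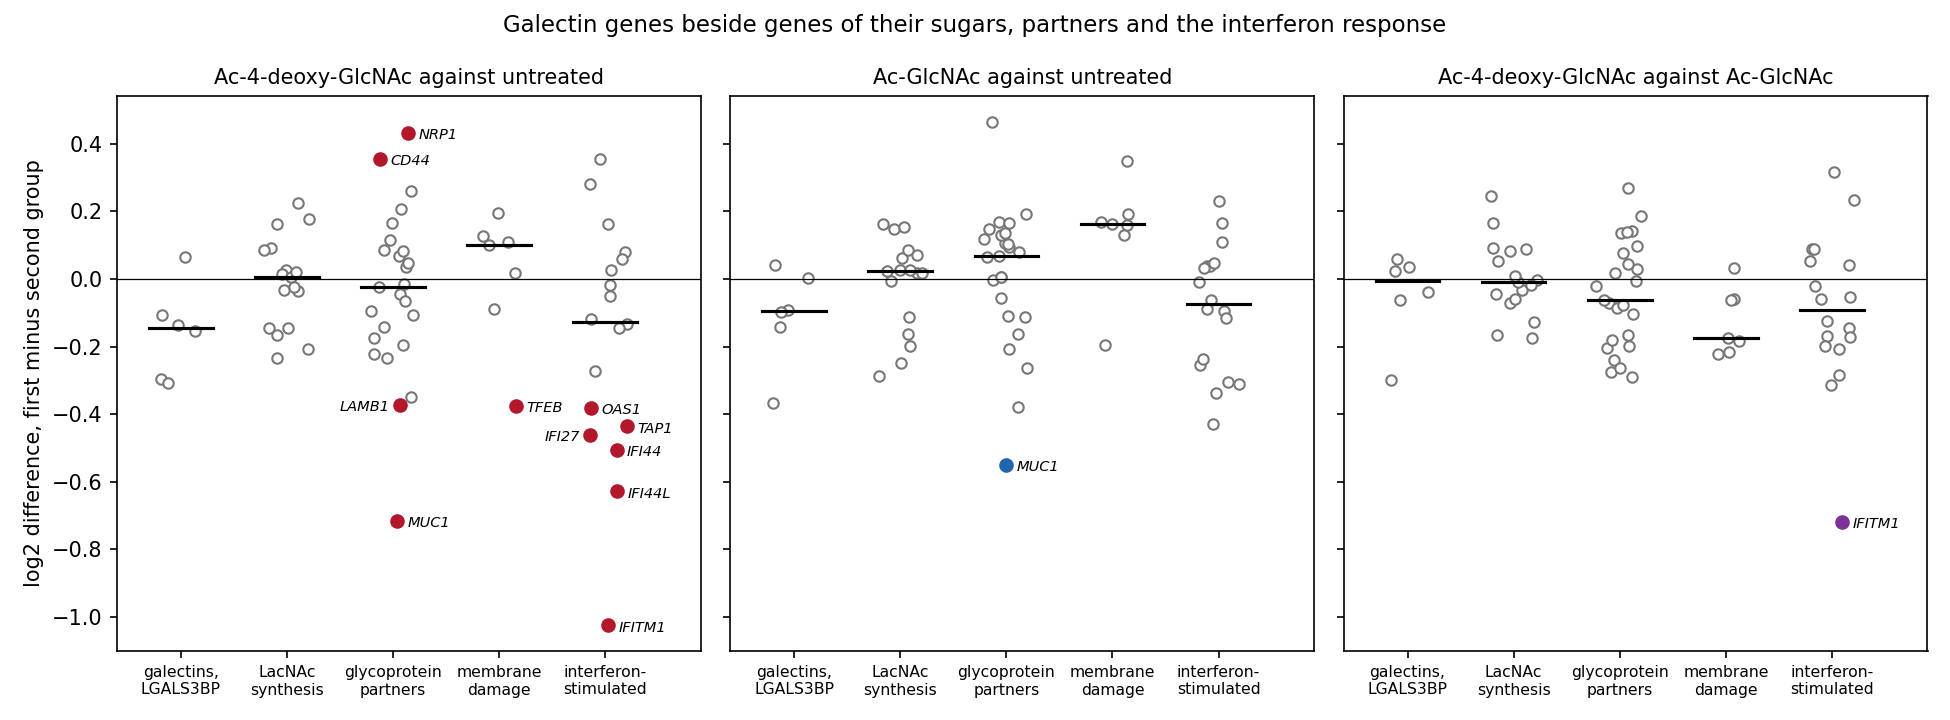
Log2 differences (vertical axis) of the 6 measured genes (galectins and LGALS3BP) beside genes of N-acetyllactosamine (LacNAc) synthesis, glycoprotein partners, membrane damage partners and interferon-stimulated genes, in the 3 comparisons from left to right. Each point is 1 gene, filled and named where called at an adjusted p under 0.05 in limma, and horizontal bars are list medians; none of the 6 is filled, while 6 interferon-stimulated genes are, all below 0, with Ac-4-deoxy-GlcNAc against untreated.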

How the data were processed

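Total RNA of 9 SKOV3 flasks was hybridised to 1 array each. Groups and replicate numbers came from the sample titles. The authors deposited log2 values, 1 per probe set and array. RMA, Partek and hg18 are named for them in the submitters' processing notes, without version, setting or filter. Probe sets were named by the platform annotation (14413 of 17859 with 1 gene, 2405 with several, 1041 with none), and the gene identifiers of 14385 of these 14413 were found in RefSeq, whose build differs, so its positions were used only for chromosome, neighbours and promoter windows. No array pair was identical. Signal over background could not be assessed, and precision is limited by how many arrays there were: a log2 difference had a median SE of 0.110.

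Limma 3.58.1 (lmFit, eBayes; R 4.3.3) was fitted to the deposited log2 values of all 9 arrays (group as the only term, 6 residual degrees of freedom). Two-sided p-values were adjusted by Benjamini-Hochberg over every probe set, and an adjusted p under 0.05 was called. All members with values are named. Of each list, up to 4 called genes were named by size, or, with no call, the 2 of smallest p. The members and lists were chosen with earlier results of these data known. PTPRC is in both the glycoprotein and the leukocyte lists. The fit was run on simulated data as a check of the code. All simulated arrays were drawn with the same spread, so the check does not cover an array with a narrower one.

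Other settings were a replicate block, array weights, limma's trend and robust options, a covariate holding each array's SD, quantile normalization, cyclic loess, median centring, a minimum mean level at the 25th or 50th percentile, fits of the 6 arrays compared, and fits without 1 array or without the pair Ac-4-deoxy-GlcNAc replicate 1 and untreated replicate 2. Probe sets of several genes gave no values, and no scanner files were used here.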

Additional observations from a re-analysis of the deposited data

How the results depend on the processing

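Over 20 other settings the 6 genes gave 345 differences, of which 2 were called and 36 had the opposite sign to the value reported, none larger than 0.14 in size. The count of called members was 0 in all 3 comparisons under these settings, the fits without 1 array included, and in the F test under the 19 that hold all 3 groups, except 1 (LGALS1) with Ac-4-deoxy-GlcNAc against untreated after cyclic loess and 1 (LGALS1) with trend and robust options. The sample titles do not say whether same-numbered arrays were paired. After group means were taken off, 3 of 9 same-numbered pairs correlated above 0.1 (from -0.24 to 0.37), and 3 of 9 arrays correlated best with their own number. With 3 arrays per group these correlations cannot decide whether the arrays were paired. With the replicate block, 0 members were called in each comparison, LGALS2 had adjusted p of 0.056 and 0.0637 in limma against untreated, and the calls over all probe sets were 2207, 324 and 432, against 1968, 79 and 425 without it. The minimum levels, log2 values of 4.89 and 6.63, kept 4 and 3 of the 6 genes. No member had more than 1 probe set of 1 gene, so the choice between probe sets was not run. The differences with the opposite sign were as follows, and the cause was not tested. For Ac-4-deoxy-GlcNAc relative to untreated, quantile normalization gave -0.0031 for LGALS3BP, 0.057 for LGALS12, 0.079 for CLC and 0.094 for LGALS14. The SD covariate gave -0.020 for LGALS3BP, 0.094 for CLC and 0.011 for LGALS14, and cyclic loess 0.0053 for LGALS4, 0.038 for LGALS12, 0.077 for CLC and 0.080 for LGALS14. For Ac-GlcNAc relative to untreated, under quantile normalization, the SD covariate and cyclic loess in turn, LGALS1 was -0.066, -0.054 and -0.11, LGALS3BP -0.074, -0.080 and -0.074, LGALS12 0.14, 0.041 and 0.12, CLC 0.014, 0.069 and 0.0085, and LGALS14 0.11, 0.019 and 0.084. LGALS4 was 0.0014 under quantile normalization, LGALS1 was -0.023 after median centring, and LGALS3 was 0.021 under array weights. Without the pair Ac-4-deoxy-GlcNAc replicate 1 and untreated replicate 2, the values were -0.0007 for LGALS1 and -0.023 for LGALS3BP. Between the compounds, LGALS14 was -0.015, -0.0076 and -0.0049 under the same 3 settings, -0.0035 under array weights and -0.039 without those 2 arrays. LGALS4 was -0.0018 under quantile normalization, and LGALS2 -0.0072 with the SD covariate. Array weights gave -0.0088 for LGALS3BP, -0.030 for LGALS4 and 0.0033 for LGALS12. In the 9 fits without 1 array, the sign turned within these ranges: for Ac-4-deoxy-GlcNAc relative to untreated, CLC from -0.19 to 0.018; for Ac-GlcNAc relative to untreated, LGALS1 from -0.054 to 0.050, LGALS3 from -0.22 to 0.044 and LGALS3BP from -0.023 to 0.12; and between the compounds, LGALS2 from -0.039 to 0.17, LGALS3 from -0.20 to 0.060, LGALS3BP from -0.055 to 0.083, LGALS4 from -0.028 to 0.085, LGALS14 from -0.039 to 0.10 and B3GNT3 from -0.0073 to 0.095.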
